A study of Drosophila melanogaster with 20 samples.

Results

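The acetylcholine genes of the fly head were followed through loss of the neuronal RNA-binding proteins FNE and RBP9. The set held 7 genes by FlyBase symbol: ChAT (choline acetyltransferase, which makes acetylcholine), VAChT (which loads it into synaptic vesicles), ChT (which takes choline back into the neuron), Ace (acetylcholinesterase, which breaks acetylcholine down) and the muscarinic receptors mAChR-A, mAChR-B and mAChR-C. Of these, 6 had a row among the 17558 gene IDs of the count table, and 5 passed the filter that left 10544 genes for testing (mean normalized count above 10). Ace was chosen by its measured CPM, which was seen to fall stepwise over the mutants, so its values are given as a description with no test. The others were listed for their function, with earlier results of these data known.

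Acetylcholine is the main fast excitatory transmitter of the insect central nervous system. It is made from choline and acetyl-CoA, packed into vesicles, released, and cleaved in the synaptic cleft by acetylcholinesterase, after which the choline is taken up again. Nicotinic receptors are ion channels opened by acetylcholine, whereas muscarinic receptors act through G proteins: in flies mAChR-A signals through Gq and mAChR-B through Gi/o.

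Total RNA was sequenced from whole heads of adult male and female flies of 4 genotypes taken 1 day after eclosion, with 5 libraries per genotype. ΔfneΔrbp9 flies combined the alleles of both single mutants, Δfne flies carried the null alleles fneΔ (the deficiency Df(1)fneΔ in the study's methods) and fneKOZ2 of the X-linked gene fne (both in females, 1 in males), Δrbp9 flies carried rbp9P2690 over the deficiency Df(2L)ED206, and wild-type flies were w1118. Df(2L)ED206 removes neighbouring genes from 1 copy of chromosome arm 2L, and none of the 7 genes lies on 2L. The sources used here do not say that the genotypes share a genetic background, so background and genotype cannot be told apart. Each library was a pool of heads from equal numbers of males and females, and the study's methods call the 5 libraries of a genotype independent replicates. In RNA from whole heads, fewer cells of a type and less RNA per cell cannot be told apart.

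Total counts were 10289950 to 18757832 per library in ΔfneΔrbp9, 13482783 to 25325636 in Δfne, 13771301 to 18921712 in Δrbp9 and 15923472 to 21064462 in wild type. Levels are given as CPM, in which each gene's count is divided by the library total, itself scaled by a TMM factor that evens out differences in RNA make-up. Both deleted genes were low where the labels place the loss, fne less completely than Rbp9. Rbp9 averaged 18.3 ± 1.41 CPM in ΔfneΔrbp9, 598 ± 27.7 in Δfne, 18.9 ± 1.52 in Δrbp9 and 482 ± 29.4 in wild type, and fne averaged 88.1 ± 5.12 CPM in ΔfneΔrbp9, 86.7 ± 9.11 in Δfne, 211 ± 9.32 in Δrbp9 and 194 ± 13.4 in wild type (SD, n = 5 each). The long noncoding RNA mimi, which the study follows, averaged 216 ± 8.60 CPM in ΔfneΔrbp9 and 949.6 ± 48.9 CPM in wild type. Summed over 8 neuronal markers, the level was 5277.2 to 5562.6 CPM in ΔfneΔrbp9, 5267.5 to 5754.5 in Δfne, 5217.2 to 5480.5 in Δrbp9 and 5355.1 to 5707.4 in wild type, so the genotypes overlapped.

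Ace averaged lower in every mutant, and ChAT, the gene that makes the transmitter, averaged higher. Ace averaged 66.2% of its wild-type level in ΔfneΔrbp9, 88.6% in Δfne and 78.9% in Δrbp9. ChAT averaged 147% of wild type in ΔfneΔrbp9, 122% in Δfne and 112% in Δrbp9, and ChT averaged 124% in ΔfneΔrbp9, 113% in Δfne and 112% in Δrbp9. Of the muscarinic receptors, mAChR-A averaged 106.5% of wild type in ΔfneΔrbp9, 102.9% in Δfne and 104.5% in Δrbp9, mAChR-B averaged 89.6% in ΔfneΔrbp9, 99.2% in Δfne and 79.2% in Δrbp9, and mAChR-C was not detected.

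**Figure D1:**
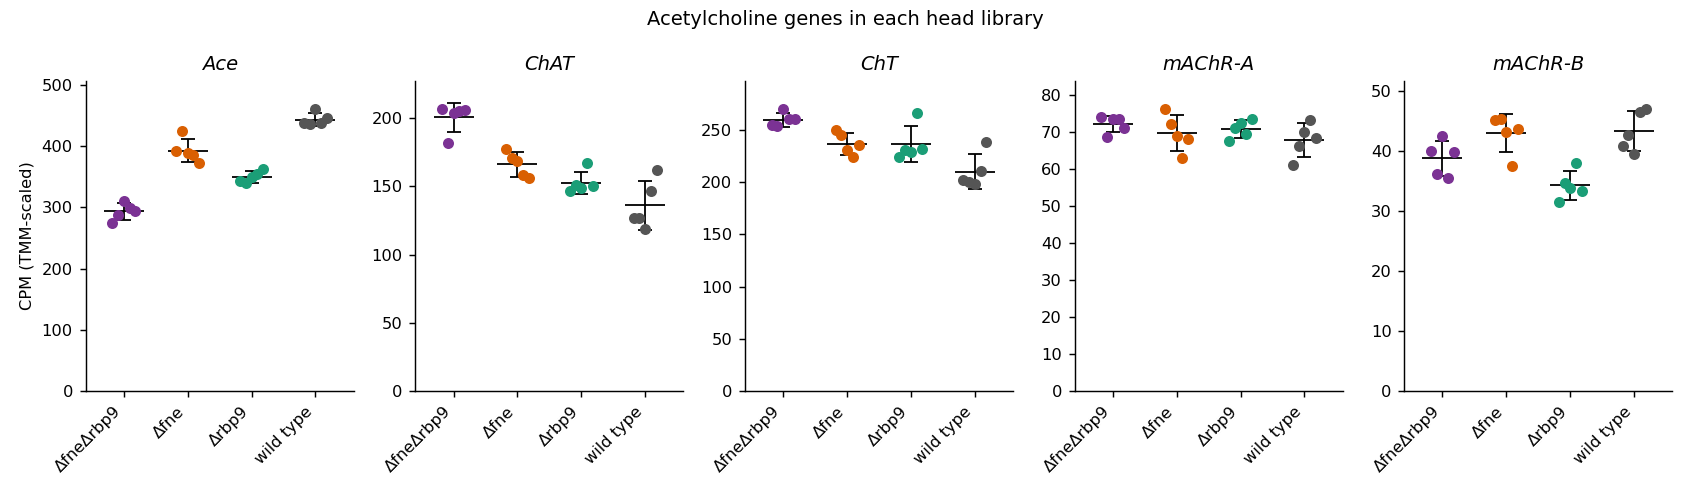
CPM (TMM-scaled, linear axes from 0) of the 5 detected genes in each of the 20 head libraries. Points are libraries, and the bars give the mean ± SD of 5. Ace falls into 4 separate bands, with ΔfneΔrbp9 at 273.4 to 309.8 CPM and wild type at 435.8 to 459.7 CPM, whereas ChAT and ChT stand above wild type in all ΔfneΔrbp9 libraries.

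Ace (FBgn0000024, minus strand of 3R, 13222951 to 13259517 in BDGP6, 8473 exon bases) encodes the only classical acetylcholinesterase of the fly. Its level in ΔfneΔrbp9 was 273.4, 288.0, 309.8, 299.4 and 294.2 CPM (293.0 ± 13.5, SD, n = 5). In Δfne it was 391.2, 424.3, 388.6, 384.9 and 372.4 CPM (392 ± 19.3). In Δrbp9 it was 342.0, 339.8, 348.8, 353.7 and 362.8 CPM (349 ± 9.29), and in wild type 436.8, 435.8, 459.7, 436.7 and 445.1 CPM (443 ± 10.2). No library of any genotype reached into the range of another: ΔfneΔrbp9 lay lowest, then Δrbp9, then Δfne, then wild type. The gap between the nearest libraries was 30 CPM between ΔfneΔrbp9 and Δrbp9, 9.69 CPM between Δfne and Δrbp9 and 11.5 CPM between Δfne and wild type. The fitted log2 difference from wild type was -0.60 in ΔfneΔrbp9, -0.17 in Δfne and -0.34 in Δrbp9, so the double mutant departed by -0.08 from the sum of the single mutants. These 4 levels are the ones that put Ace in the set. Among all 10544 genes tested, 9.53% were called in ΔfneΔrbp9 against wild type at an adjusted p below 0.01 and an absolute log2 difference above 0.5, and the log2 difference of Ace lay past that fold cutoff in ΔfneΔrbp9 and under it in both single mutants.

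ChAT (FBgn0000303, plus strand of 3R, 18705501 to 18732344, 4011 exon bases) makes acetylcholine from choline and acetyl-CoA and marks cholinergic neurons. Its level in ΔfneΔrbp9 was 206.4, 181.7, 203.3, 204.8 and 206.1 CPM (200.5 ± 10.6, SD, n = 5), in Δfne 177.2, 170.4, 168.3, 158.2 and 155.8 CPM (166 ± 8.89). In Δrbp9 it was 146.4, 150.7, 148.7, 166.7 and 150.0 CPM (152 ± 8.13), and in wild type 126.6, 126.8, 118.6, 146.8 and 162.2 CPM (136 ± 17.9). All 5 ΔfneΔrbp9 libraries lay above every library of the other genotypes, although their lowest, replicate 2, was only 4.46 CPM above the highest Δfne library. Wild-type replicates 4 and 5 lay above the other wild-type libraries, replicate 4 inside the range of Δrbp9 and replicate 5 inside the ranges of both single mutants.

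ChAT rose in ΔfneΔrbp9 against wild type by 0.56 on the log2 scale (SE 0.0686, edgeR quasi-likelihood test, Benjamini-Hochberg adjusted p = 2.27e-06, 5 of 5 libraries above all wild-type libraries). In Δfne the difference was 0.29 (adjusted p = 0.00343 by the same edgeR test), past the p cutoff but under the fold cutoff, and in Δrbp9 it was 0.16 (adjusted p = 0.0709). Against the single mutants, ChAT in ΔfneΔrbp9 was higher than in Δfne by 0.27 (edgeR adjusted p = 0.00471) and higher than in Δrbp9 by 0.39 (edgeR adjusted p = 0.000263), both under the fold cutoff. The departure from the sum of the single mutants was 0.11 (95% interval -0.09 to 0.31, edgeR adjusted p = 0.44). The p in Δfne passed 0.01 or missed it depending on the libraries: it was 0.0277 with only Δfne and wild type in the edgeR fit, and 0.011 to 0.0123 without Δfne replicate 1 or wild-type replicate 1, 2 or 3. Without wild-type replicate 5 the edgeR difference in Δrbp9 was 0.25 (adjusted p = 0.00293).

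ChT (FBgn0038641, plus strand of 3R, 18680604 to 18686739, 4748 exon bases) is the high-affinity choline transporter. Its level in ΔfneΔrbp9 was 254.5, 253.1, 269.5, 260.2 and 259.7 CPM (259 ± 6.46, SD, n = 5), in Δfne 249.4, 244.7, 230.3, 223.5 and 235.5 CPM (237 ± 10.5). In Δrbp9 it was 223.6, 230.9, 228.6, 266.3 and 231.1 CPM (236 ± 17.2), and in wild type 201.7, 200.3, 198.1, 210.4 and 238.6 CPM (209.8 ± 16.7). The ΔfneΔrbp9 libraries lay above all Δfne and all wild-type libraries, and the single exception to their lead was Δrbp9 replicate 4, which reached into their range. Wild-type replicate 5 lay inside the range of both single mutants.

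ChT was higher in ΔfneΔrbp9 than in wild type by 0.31 on the log2 scale (SE 0.0522, edgeR adjusted p = 0.000107), past the p cutoff but under the fold cutoff, so it was not called. The differences of Δfne (0.17, edgeR adjusted p = 0.0158) and Δrbp9 (0.17, edgeR adjusted p = 0.0155) from wild type were close in size and missed the p cutoff. Without wild-type replicate 5 both passed it, with edgeR adjusted p = 0.000585 for Δfne and 0.000529 for Δrbp9. ΔfneΔrbp9 exceeded Δfne by 0.13 (edgeR adjusted p = 0.0626) and Δrbp9 by 0.14 (edgeR adjusted p = 0.0606). The second of these passed the p cutoff without Δrbp9 replicate 4 (0.18, edgeR adjusted p = 0.00824).

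Some of the libraries that stood high for ChAT and ChT within their genotype also differed in markers of other tissues, and others did not. Fat body markers summed to 9403.8 and 5146.3 CPM in wild-type replicates 4 and 5, against 12075.8 to 27493.7 CPM in replicates 1 to 3, and muscle markers to 20259.5 and 20216.9 CPM, against 16027.9 to 17491.1 CPM. Δrbp9 replicate 4 held 16311.5 CPM of muscle markers, against 14486.7 to 14735.7 CPM in the other Δrbp9 libraries, while its fat body sum of 14535.6 CPM lay inside their range of 12888.6 to 17535.1 CPM. Δfne replicate 1, the highest Δfne library for both genes, lay inside the range of the other Δfne libraries for fat body (6606.4 CPM) and for muscle (19400.5 CPM). The part of these tissues in the ChAT and ChT levels was not tested. With wild-type replicates 4 and 5 left out together, a choice made after their values were seen, ChAT in ΔfneΔrbp9 was 0.70 above wild type (edgeR adjusted p = 1.29e-08) and ChT 0.38 (edgeR adjusted p = 7.19e-06). ChAT then also passed the p cutoff in Δrbp9 (0.31, edgeR adjusted p = 0.000213).

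**Figure D2:**
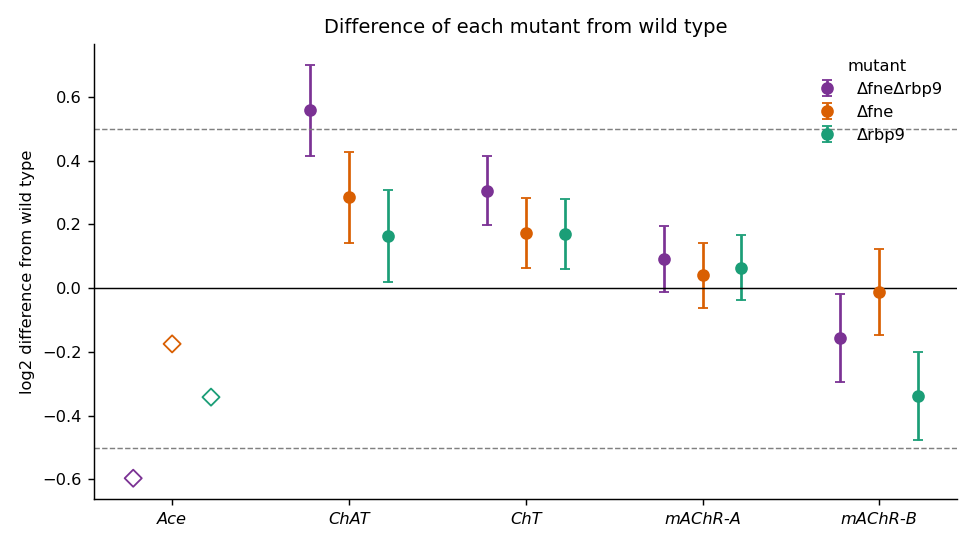
Log2 difference of each mutant from wild type for the 5 detected genes, as fitted by edgeR over all 20 libraries. Filled points carry 95% intervals, open diamonds give Ace without an interval because its fall chose it, and the dashed lines mark the fold cutoff of 0.5 in each direction. ChAT in ΔfneΔrbp9, at 0.56, is the only filled point past the cutoff.

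The ChAT row needs care. ChAT and VAChT share 1 locus and their first exon (606 shared exon bases on the same strand), the VAChT coding region lying within the first intron of ChAT. The VAChT identifier had no row here and VAChT was not analysed, and whether reads of VAChT exons entered the ChAT row cannot be told from the table. CG7714, tested here, lies on the opposite strand within the ChAT locus with a mean count of 133.3, and its log2 difference in ΔfneΔrbp9 was 0.07 (edgeR adjusted p = 0.798). ChT shares 3299 exon bases on the same strand with CG46318, which also had no row.

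ChT and ChAT are neighbours on 3R, 18.8 kb apart on the same strand, and Ace lies 5.42 Mb from ChT. Over the 20 libraries the log2 CPM of ChAT and ChT had a Pearson r of 0.92, and r was 0.83 for deviations from the genotype means, a description over libraries that share their genotype and scaling. Such deviations also gave mAChR-B, elsewhere on 3R, r = 0.73 with ChAT and 0.77 with ChT. Over the libraries those 2 values were 0.06 and -0.04. CG42323, on X, had 0.92 with ChT for deviations from the genotype means. Ace and ChAT had r = -0.76 over the libraries and 0.12 for deviations from the genotype means. The ratio of ChAT to Ace counts was 0.685 ± 0.0472 in ΔfneΔrbp9, 0.423 ± 0.0202 in Δfne, 0.436 ± 0.0222 in Δrbp9 and 0.308 ± 0.0421 in wild type (SD, n = 5 each). The ΔfneΔrbp9 ratios, 0.631 to 0.755, lay above those of every other library, which reached 0.471, and since the ratio holds Ace it is a description only.

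**Figure D3:**
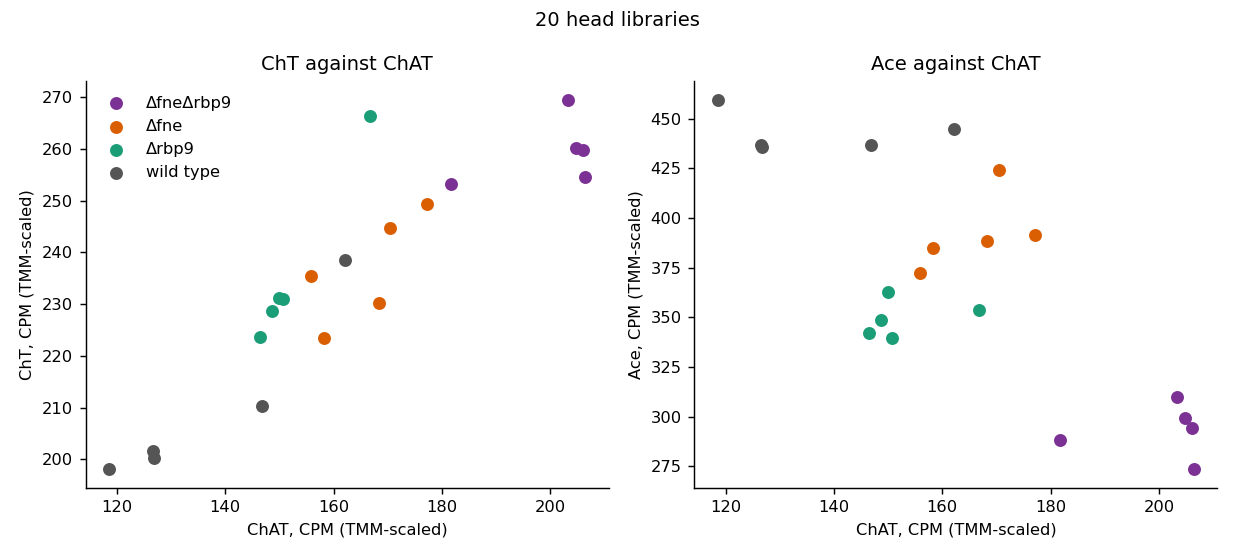
CPM of ChT (left) and Ace (right) against ChAT in the 20 head libraries, coloured by genotype, with axes that do not start at 0. ChT and ChAT climb together across and within genotypes (r 0.92 over the libraries and 0.83 within genotypes). Ace and ChAT place ΔfneΔrbp9 and wild type at opposite ends, but both average higher in Δfne than in Δrbp9. Inside genotypes Ace and ChAT show little relation (r 0.12).

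Of 30 tested neighbours of the 7 genes, 1 was called higher and 1 lower in ΔfneΔrbp9 (9.53% of all genes), 0 higher and 2 lower in Δfne (8.04% of all genes), and none in Δrbp9 (8.04%) by edgeR. The flanking genes of the ChT and ChAT pair, CG7706 and Mekk1, had log2 differences of 0.01 and -0.12 in ΔfneΔrbp9 (edgeR adjusted p = 0.924 and 0.0324). CG7900, next to mAChR-B, was the only neighbour called in more than 1 mutant, with -0.62 in ΔfneΔrbp9 and -3.66 in Δfne. The neighbour called higher in ΔfneΔrbp9 was CG43060, on the other side of mAChR-B (1.77, edgeR adjusted p = 4.28e-05). CG8483, 1 of the 6 neighbours of Ace, had a log2 difference of -2.22 in Δrbp9 that was not called (edgeR adjusted p = 0.0152). CG8476, directly beside Ace, was called lower in Δfne (-1.04). It differed by -0.68 in ΔfneΔrbp9 (edgeR adjusted p = 0.031, not called) and by -0.03 in Δrbp9.

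**Figure D4:**
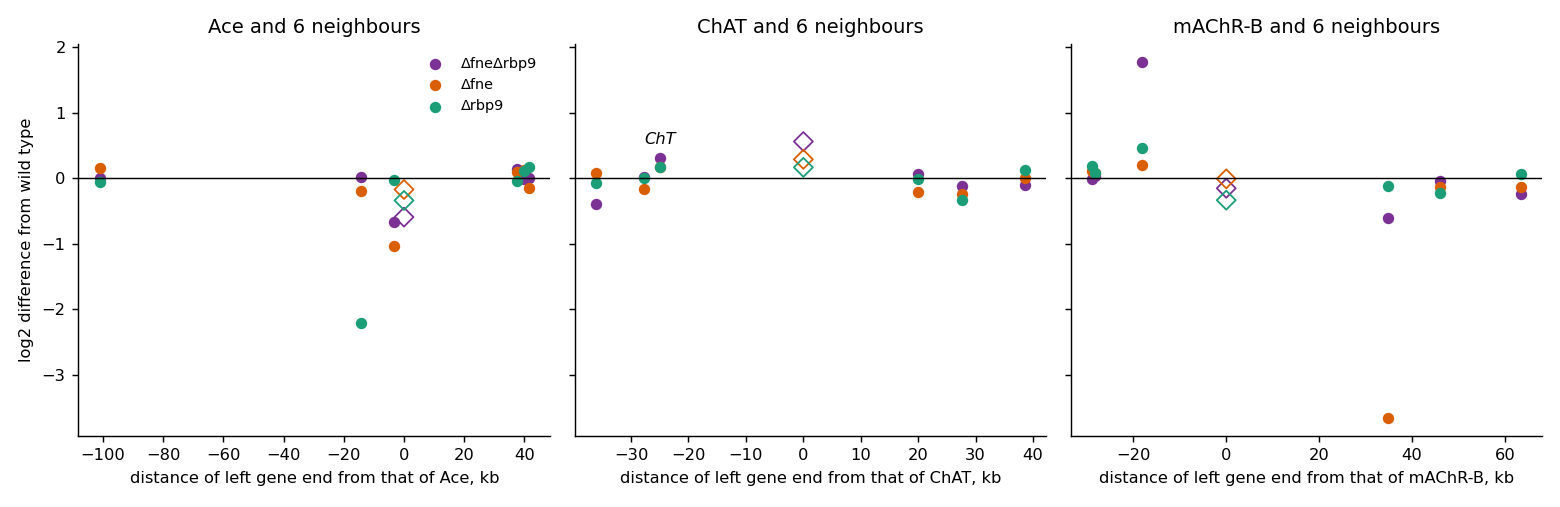
Log2 difference from wild type of Ace, ChAT and mAChR-B (open diamonds at 0 kb) and of the 3 nearest tested genes on each side (filled points), by distance along the chromosome in kb, for each mutant. ChT, 0.31 in ΔfneΔrbp9, is the only neighbour of ChAT that lies above 0 in all 3 mutants by over 0.1. Beside mAChR-B, CG43060 does so too (1.77 in ΔfneΔrbp9, 0.19 in Δfne and 0.45 in Δrbp9), and CG7900 reaches -3.66 in Δfne.

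mAChR-A (FBgn0000037, minus strand of 2R, 24378630 to 24390294, 5425 exon bases), the Gq-coupled receptor, differed little. Its level was 68.7 to 74.1 CPM in ΔfneΔrbp9 (72.3 ± 2.26, SD, n = 5), 63.2 to 76.3 in Δfne (69.8 ± 4.88), 67.6 to 73.6 in Δrbp9 (70.9 ± 2.36) and 61.2 to 73.4 in wild type (67.9 ± 4.57). The ranges overlapped in every comparison. The log2 difference from wild type was 0.09 in ΔfneΔrbp9 (95% interval -0.01 to 0.19, edgeR adjusted p = 0.164), 0.04 in Δfne (-0.06 to 0.14) and 0.06 in Δrbp9 (-0.04 to 0.17). The intervals therefore leave room for differences of up to about 0.19, a size under the fold cutoff. CG13578 overlaps 111 exon bases of mAChR-A on the opposite strand, with a mean count of 83.6, and the strand setting of the counting was not given in the sources used here.

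mAChR-B (FBgn0037546, plus strand of 3R, 8059284 to 8087049, 4823 exon bases), the Gi/o-coupled receptor, was lowest in Δrbp9. Its level in ΔfneΔrbp9 was 40.0, 36.2, 42.6, 35.6 and 39.8 CPM (38.9 ± 2.93, SD, n = 5), in Δfne 45.2, 45.4, 43.2, 37.6 and 43.7 CPM (43.0 ± 3.17). In Δrbp9 it was 31.5, 34.7, 33.9, 38.1 and 33.4 CPM (34.3 ± 2.42), and in wild type 40.9, 42.6, 39.6, 46.5 and 47.0 CPM (43.3 ± 3.31). All 5 Δrbp9 libraries lay below all wild-type libraries, the nearest by 1.5 CPM, while the other genotypes overlapped wild type and each other.

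mAChR-B in Δrbp9 differed from wild type by -0.34 on the log2 scale (SE 0.0658, edgeR adjusted p = 0.00053), past the p cutoff but under the fold cutoff. With wild-type replicates 4 and 5, the highest for this gene, left out together, the difference was -0.25 and missed the p cutoff (edgeR adjusted p = 0.0108). In ΔfneΔrbp9 it was -0.16 (edgeR adjusted p = 0.0711) and in Δfne -0.01 (95% interval -0.15 to 0.12, edgeR adjusted p = 0.915). ΔfneΔrbp9 against Δrbp9 gave 0.18 (edgeR adjusted p = 0.0496), and the departure from the sum of the single mutants was 0.19 (95% interval -0.00097 to 0.39, edgeR adjusted p = 0.133). So a lower mAChR-B level passed the p cutoff with RBP9 lost alone, and the test of whether the additional loss of FNE altered that difference did not pass.

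mAChR-C (FBgn0029909, minus strand of X, 6831397 to 6832684) had 0 counts in all 5 ΔfneΔrbp9 libraries, against 3 counts over the Δfne libraries, 1 over the Δrbp9 libraries and 4 over the wild-type libraries. No library held more than 2 counts, under the floor of 3 counts that a count of 0 allows, so mAChR-C was not detected in heads at this depth. It lies within nonC on the opposite strand. The floor covers counting error only.

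Per kilobase of exon the order of the genes differed between genotypes. In ΔfneΔrbp9 heads ChT stood highest with 54.6 ± 1.36 CPM per kb, followed by ChAT with 49.98 ± 2.64, Ace with 34.6 ± 1.60, mAChR-A with 13.3 ± 0.416 and mAChR-B with 8.06 ± 0.607 (SD, n = 5). In wild type Ace stood highest with 52.3 ± 1.20 CPM per kb, followed by ChT with 44.2 ± 3.52, ChAT with 33.96 ± 4.45, mAChR-A with 12.5 ± 0.843 and mAChR-B with 8.99 ± 0.685. Within each of these 2 genotypes the library ranges of neighbours in the order did not overlap. In Δfne and Δrbp9 the order was ChT, Ace, ChAT, mAChR-A and mAChR-B. In Δfne the ranges of ChT (47.1 to 52.5) and Ace (43.96 to 50.1), and those of Ace and ChAT (38.8 to 44.2), overlapped, and in Δrbp9 those of Ace (40.1 to 42.8) and ChAT (36.5 to 41.6) did. Were VAChT reads in the ChAT row, the length would be 10503 joint exon bases and the ChAT level 19.1 CPM per kb in ΔfneΔrbp9 and 12.97 in wild type.

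In numbers, 1 of the 4 tested genes other than Ace was called in ΔfneΔrbp9 against wild type, where 4.66% of all genes were called higher. At the p cutoff alone it was 2 of 4 higher, where 11.9% of all genes were higher. Their median log2 difference was 0.20, beside a median of -0.00036 over all genes. Leaving out Ace (-0.60), which was chosen for its fall, raises that median. A set of 4 genes sets no firm share, and the count says no more than the calls of ChAT and ChT themselves.

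None of the 4 was called by edgeR in Δfne against wild type (8.04% of all genes) or in Δrbp9 against wild type (8.04%), and DESeq2 called none either. At the p cutoff alone 1 was higher in Δfne (ChAT, where 9.46% of all genes were higher) and 1 lower in Δrbp9 (mAChR-B, where 11.9% of all genes were lower). At an unadjusted p under 0.05, 2 were higher in Δfne (20.8% of all genes), and 2 were higher and 1 lower in Δrbp9 (22.6% and 22.2% of all genes). None was called against Δfne (6.82% of all genes) or against Δrbp9 (4.66%) in the double mutant, where DESeq2 called none either. In each of these comparisons 3 of the 4 passed an unadjusted p under 0.05, as did 39% of all genes against Δfne and 38.2% against Δrbp9. At the p cutoff alone ChAT was higher in both, where 8.93% of all genes were higher than in Δfne and 7.73% higher than in Δrbp9. None was called for the departure from the sum (8.97% of all genes), where none reached an unadjusted p under 0.05 and DESeq2 called none. The comparisons with wild type share the same 5 control libraries, so agreement between the mutants is not independent.

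Of 10 nicotinic receptor subunits, 0 were called higher and 1 lower in ΔfneΔrbp9 by edgeR, where 9.53% of all genes were called in either direction. The list's median log2 difference was 0.01. The subunit nAChRbeta3 averaged 21.8 ± 0.998 CPM in ΔfneΔrbp9, 26.4 ± 2.81 in Δfne, 23.4 ± 1.1 in Δrbp9 and 33.2 ± 4.29 in wild type (SD, n = 5 each). It fell by 0.61 on the log2 scale in ΔfneΔrbp9 (edgeR adjusted p = 4.38e-06) and by 0.51 in Δrbp9 (edgeR adjusted p = 5.00e-05), and in Δfne the difference was -0.34 (edgeR adjusted p = 0.00239), under the fold cutoff. nAChRbeta1, named after its values were seen, averaged 66.6 CPM in ΔfneΔrbp9 and 89.0 CPM in wild type, a difference of -0.42 (edgeR adjusted p = 3.20e-06). At the p cutoff alone 1 subunit was higher and 2 lower in ΔfneΔrbp9, beside 11.9% of all genes higher and 13% lower. The higher one was nAChRbeta2 (0.12, edgeR adjusted p = 0.00939), also named after its values were seen.

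Of 10 genes listed under choline and acetyl-CoA supply, none was called by edgeR or DESeq2 in ΔfneΔrbp9 against wild type (9.53% of all genes by edgeR). The median was -0.08, over a list that also holds genes of phospholipid synthesis. At the p cutoff alone 4 were lower and 0 higher, beside 13% of all genes lower and 11.9% higher. The numbers were the same at an unadjusted p under 0.05, which 22.1% of all genes passed as lower. These 4, named after their values were seen, were the choline transporter-like gene Ctl1 (-0.45), Pcyt1 (-0.43) and Pcyt2 (-0.39), which activate phosphocholine and phosphoethanolamine, and the ethanolamine kinase eas (-0.16). The last 3 belong to phospholipid synthesis rather than to transmitter synthesis. Ctl1 was called in Δrbp9 with -0.57 (edgeR adjusted p = 3.25e-08).

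Of 16 genes listed as G protein signalling downstream of muscarinic receptors, none was called by edgeR or DESeq2 in ΔfneΔrbp9 (9.53% of all genes by edgeR). Their levels come from all cells of the head, with or without these receptors, and muscarinic signalling itself was not tested. The list's median was 0.06. At an unadjusted p under 0.05, 6 were higher and 5 lower, beside 22.5% of all genes higher and 22.1% lower. The lowest was the G protein subunit Ggamma1 (771.9 CPM in ΔfneΔrbp9 and 1025 CPM in wild type, -0.41) and the highest inaE, a diacylglycerol lipase (117 CPM in ΔfneΔrbp9 and 95.3 CPM in wild type, 0.30), both named after their values were seen.

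**Figure D5:**
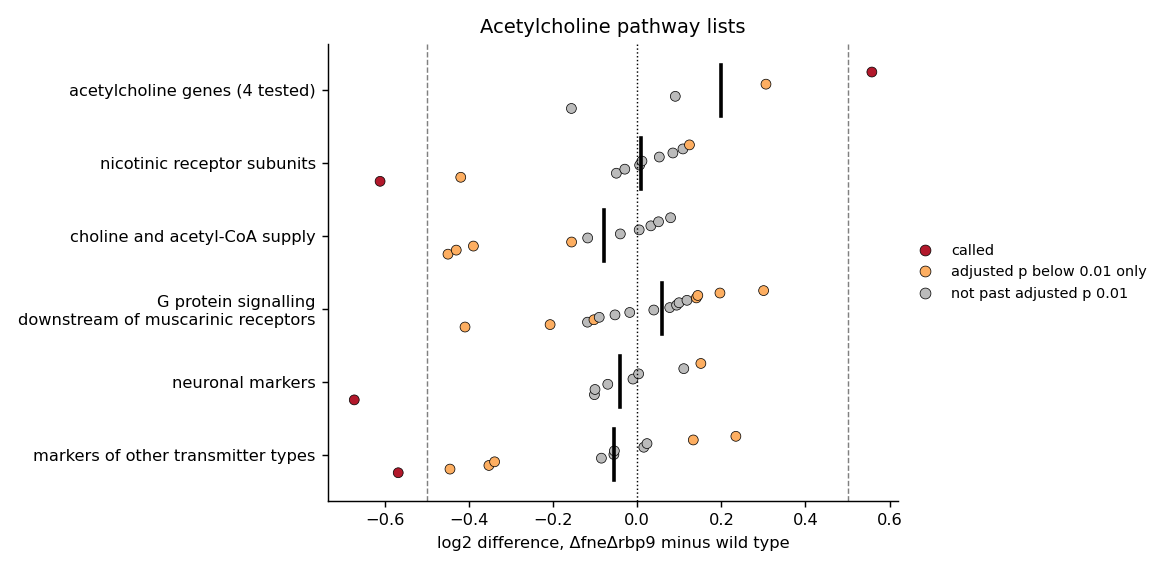
Log2 difference of ΔfneΔrbp9 from wild type for each tested gene (points) of the acetylcholine set without Ace and of 5 lists, with the list median as a bar, the all-gene median as a dotted line and the fold cutoff of 0.5 as dashed lines. The acetylcholine set has the highest median, 0.20, from 4 genes, and the nicotinic list has a median of 0.01 with nAChRbeta3 at -0.61. Ace, at -0.60, is left out of the set for its fall, which raises the set's median beside those of the lists.

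Markers of cell types were measured beside these results, with calls by edgeR for the double mutant compared with wild type. The background to these calls was 9.53% of all 10544 tested genes in either direction, 491 of them higher and 514 lower. Of 8 neuronal markers, Snap25, a vesicle fusion protein, was called, lower by 0.67 in log2 (edgeR adjusted p = 1.47e-09), and the list's median was -0.04. Of 11 markers of neurons that use other transmitters, Trhn, which begins serotonin synthesis, was called lower in ΔfneΔrbp9 (-0.57), and the median was -0.06. The 8 glial markers, none called, summed to 3950.1 to 4120.0 CPM in ΔfneΔrbp9, 4481.4 to 4859.4 in Δfne, 3843.8 to 4225.1 in Δrbp9 and 4143.4 to 4819.2 in wild type, so that ΔfneΔrbp9 lay below wild type without overlap. The 8 photoreceptor markers, none called in ΔfneΔrbp9, summed to 19666.4 to 20988.0 CPM there, inside the wild-type range of 19400.6 to 21043.1 CPM. In Δrbp9 the photoreceptor markers summed to 17256.7 to 17671.2 CPM. The 4 hemocyte markers, 3 of them called lower (NimC1, -1.28, Ppn, -0.60, and Hml, -0.51), summed to 518.0 to 728.1 CPM in ΔfneΔrbp9 and 781.3 to 1125.1 CPM in wild type. Of 7 tested muscle markers Mhc was called lower (-0.58). Of 8 fat body markers Fbp2 (2.70), Fbp1 (2.00) and Lsp2 (1.16) were called higher, but the list's median was -0.03. At an unadjusted p under 0.05 by edgeR, 3 fat body markers were higher and 2 lower. The fat body sum was 8544.6 to 13526.5 CPM in ΔfneΔrbp9, inside the wild-type range of 5146.3 to 27493.7 CPM. No marker was at 0 in all libraries of a genotype. The part of these cell types in the acetylcholine genes was not tested.

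The genes whose log2 CPM followed a member most closely over the 20 libraries were found among 8149 genes with a mean count above 100, as a description without a test. For Ace they were Myo81F (a myosin, r = 0.97), orb2 (an RNA-binding protein needed for long-term memory, 0.97), Pitslre (a kinase, 0.96), Syt12 (a synaptotagmin, 0.95) and scrt (a neuronal transcription factor, 0.95). Each of these averaged lowest in ΔfneΔrbp9, then Δrbp9, then Δfne, then wild type. That is the order of Ace, which choosing genes by r over these libraries favours. orb2, for example, averaged 138 CPM in ΔfneΔrbp9, 191 in Δfne, 164 in Δrbp9 and 205.0 in wild type. For ChAT the most alike genes were mino (0.94) and CG18265 (0.92), and ChT was the fifth. For ChT they were CG42323 (0.96) and Lapsyn (0.94). For mAChR-A they were Dab (0.88) and mim (0.85), and for mAChR-B they were ppk22 (0.96) and Lpin (0.93). The libraries share genotype, scaling and tissue make-up, which enter every one of these values.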

How the data were processed

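Libraries were made from 725 ng of total RNA with a stranded ribosome-depleting kit. The deposited values were unnormalized counts, made by the authors with STAR, Subread and featureCounts on dm6 according to the submitters' processing notes. The study's methods name Ensembl release 96, while versions and the strand setting are not given in the sources used here. A second deposited table holds the authors' own DESeq2 comparison of ΔfneΔrbp9 with wild type (log2 fold changes and p-values) and was not used. Symbols and coordinates came from Ensembl release 115 (BDGP6), which named 17252 of 17558 IDs. The other 306, with 3.76% of counts, were kept.

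All 20 libraries were fitted with edgeR 4.0.16 (limma 3.58.1, R 4.3.3, TMM, quasi-likelihood F-test, two-sided, genotype only) over 10544 genes with a mean normalized count above 10, with Benjamini-Hochberg adjustment. A gene was called at adjusted p below 0.01 and absolute log2 difference above 0.5, the cutoffs of the study. Intervals are at 95%. The fit was tested on simulated data. Over 40 replicate pairs, the lowest ratio of chi-square to degrees of freedom was 4.86 (genes with 20 counts or more), so no library was a copy. The alternatives were DESeq2 1.42.0, other scalings, no count filter, pairwise fits, a replicate block, other cutoffs, each library left out, and wild-type replicates 4 and 5 left out.

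The members and lists were chosen with earlier results of these data known. Besides the members, genes were named where a list gene was called in ΔfneΔrbp9 against wild type (at most 3 per direction), a neighbour was called in more than 1 mutant, a tested gene overlapped a member, or a gene was among the most alike over the libraries (mean count above 100, log2 CPM with prior count 2). Any other gene was named after its values were seen. The lists held nicotinic subunits, choline and acetyl-CoA supply, G protein signalling, and neuronal, photoreceptor, glial, fat body, muscle, hemocyte and other transmitter markers. Levels per kb used the union of annotated exons.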

Additional observations from a re-analysis of the deposited data

Results flagged for a closer look

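In 20 sets of 5 libraries (5 genes in 4 genotypes), 4 held a library far from the rest, where the gap to the nearest library as a share of the whole range passed Dixon's 95% critical value. Chance alone marks about 1 in 20 such sets. ChAT was low in ΔfneΔrbp9 replicate 2 (0.874 of the range) and high in Δrbp9 replicate 4 (0.791). ChT was high in the same Δrbp9 replicate 4 (0.825), and mAChR-B was low in Δfne replicate 4 (0.713). Δrbp9 replicate 4 was thus marked for both genes, which are neighbours on 3R, and it was also the highest Δrbp9 library for mAChR-B.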

How the results depend on the processing

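Over 27 refitted alternatives, ChAT in ΔfneΔrbp9 against wild type ranged from 0.51 to 0.70 in log2 and was called in all of them, and ChT there ranged from 0.29 to 0.38 and passed the p cutoff in all of them. Ace ranged from -0.62 to -0.57 in ΔfneΔrbp9, from -0.20 to -0.16 in Δfne and from -0.35 to -0.30 in Δrbp9, the last bound (-0.30) coming from total count scaling. Without a fold cutoff the acetylcholine genes called were 2 in ΔfneΔrbp9, 1 in Δfne and 1 in Δrbp9 against wild type, and 1 against each single mutant in ΔfneΔrbp9. Calls over all genes against wild type were 1005 in ΔfneΔrbp9 (2631 without a fold cutoff, 937 to 1041 with 1 library left out, 993 with a replicate block), 848 in Δfne (2019, 794 to 933 and 843) and 848 in Δrbp9 (2411, 771 to 887 and 823). Those of ΔfneΔrbp9 were 719 against Δfne (2005, 672 to 739 and 701) and 491 against Δrbp9 (1591, 410 to 575 and 475), and 946 for the departure from the sum (1746, 865 to 995 and 916). Total count scaling gave 443 higher and 418 lower calls in Δrbp9 against wild type (363 and 485 with TMM), 243 and 237 in ΔfneΔrbp9 against Δrbp9 (292 and 199), and 419 and 559 for the departure from the sum (488 and 458).

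Of 773 alternative values for single genes, 10 changed sign, none of them called. The 773 include values where only a cutoff was changed, whose sign cannot change. The mAChR-B difference in Δfne became 0.034 without Δfne replicate 4, 0.014 without wild-type replicate 4, 0.024 without wild-type replicate 5 and 0.071 without both wild-type libraries. The mAChR-A difference of ΔfneΔrbp9 from Δrbp9 became -0.012 under total count scaling. The departure from the sum became -0.040 for ChAT without both wild-type libraries, 0.0088 for ChT without Δrbp9 replicate 4 (range with 1 library left out -0.10 to 0.0088), and for mAChR-A 0.018, 0.0035 and 0.011 without Δfne replicate 1, ΔfneΔrbp9 replicate 2 and wild-type replicate 1 (range -0.049 to 0.018). The p of ChAT in ΔfneΔrbp9 against Δfne missed 0.01 in 6 alternatives, each without 1 library, at up to 0.015 by edgeR. The cause was not tested.

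Replicate numbers did not pair the libraries: the 30 same-numbered pairs had correlations of -0.44 to 0.573, and 9 were over 0.1. The 120 differently numbered pairs had -0.451 to 0.574, and 34 were over 0.1. The medians were 0.0258 and 0.000665. A replicate block left the call of each acetylcholine gene as it was, with 993 calls over all genes in ΔfneΔrbp9 against wild type. The sum of ChAT and VAChT was not run, since VAChT was not analysed. mAChR-C was under the count floor in every library.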
